A study of Mus musculus with 12 samples.

Results

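The 44 genes described here drive or gate cell division in the mouse. They were chosen by symbol and not by a measured value, but with earlier results of these data known. They comprise 21 genes of mitosis, 11 of DNA replication and nucleotide supply, and 12 that control passage through G1. All 44 were found among the 24421 gene symbols of the count table, and 43 of the 44 passed the filter on low counts, as did 13534 genes in all. The mRNA held by ribosomes was sequenced from tumours grown under the skin from 2 mouse melanoma lines, B16F10, labelled highly metastatic (n = 7 libraries), and B16F0, labelled poorly metastatic (n = 5). Tumours of both lines grew for 12 days in C57BL/6 hosts that carried Rpl22fl/flHA, a floxed ribosomal protein gene that gains an HA tag after Cre recombination, together with Cdh5(PAC)-CreERT2. All mice received Tamoxifen, which activates the Cre in cells that use the Cdh5 promoter, those of the vessel lining, while the implanted tumour cells carry no tag of their own. The sources used here give no age for the hosts. They also do not say whether the libraries of a group came from separate animals or from pools, so the p-values reflect the spread from library to library, which may be technical in part.

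A dividing cell leaves G1, copies its DNA in S phase and separates the copies in mitosis. D-type cyclins with Cdk4 and Cdk6, and then E-type cyclins with Cdk2, phosphorylate the retinoblastoma protein Rb1 and free E2F factors, which turn on genes of replication such as those of the Mcm helicase, the sliding clamp Pcna and ribonucleotide reductase. Genes of mitosis are turned on later, in large part through a promoter element called CHR, often with CCAAT boxes close by. Cdkn1a (p21), Cdkn1b (p27) and the products of Cdkn2a restrain the kinases. In a tumour these transcripts can come from the cancer cells, which cycle fast, and from sprouting vessel cells and infiltrating cells, which can cycle as well.

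The promoters of 34 of the 44 members were found in RefSeq windows of 250 bases before to 50 bases after the start of the gene (build GRCm38.p6). They are shown as a description, and a link between promoter letters and the movement of the members in the libraries was not tested. The replication members moved together in the libraries. Of the mitosis members 11 of 21 rose and 4, Mki67 among them, fell with the melanocytic score described below. Of all tested genes 15.6% rose and 17.2% fell with that score. The letters TTTGAA and TTTAAA (CHR) stood on either strand in 15 of 17 mitosis members with a window (88.2%), in 3 of 9 replication members (33.3%) and in 2 of 8 G1 members (25.0%), against 30.6% of all 27025 genes of the RefSeq table. CCAAT stood in 88.2% of the mitosis windows, 88.9% of the replication windows and 37.5% of the G1 windows, against 41.1% of all genes. The E2F-like letters TTTGGCGC, TTTCCCGC, TTTCGCGC and TTTGCCGC stood in 4 of 9 replication members (44.4%), in 5.88% of the mitosis and 12.5% of the G1 members, and in 2.6% of all genes. Both CHR and CCAAT letters stood in 82.4% of the mitosis windows and in 13.4% of all genes. These counts describe letters, not bound sites. The 200 bases directly before the start are given below for 6 members, 5′ to 3′ on the strand of the gene, with the searched letters in capitals on whichever strand they lie, so that ATTGG is CCAAT and TTCAAA is TTTGAA on the other strand. E2F-like matches on opposite strands overlap in the first run of capitals of Mcm5 and of Mcm6.
Ccnb1, cyclin B1, chr13:100786487-100786686, minus strand: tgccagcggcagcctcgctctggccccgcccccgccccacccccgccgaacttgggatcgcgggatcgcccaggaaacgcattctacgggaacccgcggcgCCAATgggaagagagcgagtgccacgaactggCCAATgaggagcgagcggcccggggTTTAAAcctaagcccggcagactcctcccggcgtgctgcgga
Cdc20, activator of the anaphase-promoting complex, chr4:118437344-118437543, minus strand: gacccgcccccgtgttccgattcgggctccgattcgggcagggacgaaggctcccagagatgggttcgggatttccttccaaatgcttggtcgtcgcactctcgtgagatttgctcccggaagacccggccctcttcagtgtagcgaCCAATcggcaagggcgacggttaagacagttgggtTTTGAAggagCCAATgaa
Kif11, a spindle motor, chr19:37376182-37376381, plus strand: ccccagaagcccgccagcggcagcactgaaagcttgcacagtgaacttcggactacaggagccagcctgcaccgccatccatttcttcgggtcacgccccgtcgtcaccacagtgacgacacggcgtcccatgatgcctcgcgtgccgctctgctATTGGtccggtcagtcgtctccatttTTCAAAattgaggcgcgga
Mki67, the Ki-67 antigen, chr7:135716380-135716579, minus strand: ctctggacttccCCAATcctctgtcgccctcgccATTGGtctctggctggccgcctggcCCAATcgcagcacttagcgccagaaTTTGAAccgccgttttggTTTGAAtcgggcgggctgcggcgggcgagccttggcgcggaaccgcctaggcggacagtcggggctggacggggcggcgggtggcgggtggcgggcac
Mcm5, a helicase subunit, chr8:75109309-75109508, plus strand: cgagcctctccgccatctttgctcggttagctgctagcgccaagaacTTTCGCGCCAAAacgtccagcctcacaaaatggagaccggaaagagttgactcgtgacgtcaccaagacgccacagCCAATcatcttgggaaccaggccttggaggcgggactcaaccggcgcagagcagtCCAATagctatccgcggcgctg
Mcm6, a helicase subunit, chr1:128359706-128359905, minus strand: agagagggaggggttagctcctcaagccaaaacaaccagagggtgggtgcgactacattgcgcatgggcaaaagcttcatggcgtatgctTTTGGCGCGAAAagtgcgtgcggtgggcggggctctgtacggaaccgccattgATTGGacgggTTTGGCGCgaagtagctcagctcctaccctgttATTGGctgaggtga
Ccnb1, Cdc20, Kif11 and Mki67 thus hold CHR and CCAAT letters and none of the E2F-like words in these 200 bases, and Mcm5 and Mcm6 hold CCAAT and E2F-like letters. Mcm5 also holds TTTAAA at position -221, outside the printed bases. The printed members are picked examples, and the roles were less distinct. Among replication members Mcm2 and Rrm2 hold CHR letters, and Pcna and Rrm1 hold CCAAT alone. The mitosis member Cdk1 holds an E2F-like word.

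Library totals ran from 5322510 to 20569186 counts, and each line was spread over lanes 1, 2 and 6 of the sequencer, as the library names give them. CPM below are counts scaled to a common library total, from TMM-scaled totals of the tested genes. The tissue label names endothelial cells. The 20 pan-endothelial markers summed to 826 to 6003 CPM in B16F10 and 1097 to 6258 CPM in B16F0, while 20 melanocytic markers summed to 12588 to 24645 and 15134 to 25473 CPM, so that the melanocytic sum was the higher in every library. Sums over different genes do not give the amounts of the cell types, and the members' reads cannot be assigned to the tagged cells. The endothelial score, the mean log2 CPM of the first list, was 7.54 and 6.88 in B16F10 replicates 4 and 5 and 7.61 in B16F0 replicate 3, against 4.79 to 5.67 in the other 9 libraries. Rn45s, the precursor of ribosomal RNA, made up 31.4% of the counts of B16F10 replicate 5 and 8.91% of those of B16F0 replicate 5, against at most 1.75% elsewhere. No pair of libraries of a line agreed within sampling noise.

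A group of 3 libraries stood apart, and many values below rest on them. They are B16F0 replicates 1 and 2 and B16F10 replicate 3, which had the highest melanocytic scores (8.56, 8.68 and 8.58 as mean log2 CPM, against 7.79 to 8.23 in the other 9). The same libraries had the fewest genes with a count (15930, 16890 and 16795, against 17921 to 22386). Counts of 1478 olfactory, vomeronasal and taste receptor genes, which most tissues do not express and which serve here as a measure of background reads, summed to 9.85, 26.9 and 26.2 CPM in them and to between 31.1 and 942 CPM elsewhere. Relative to each gene's own mean, the longest 20% of transcripts differed from the shortest 20% by -0.26, -0.35 and -0.37 on the log2 scale in these libraries and by -0.02 to 0.34 in the others. Their macrophage score was also the highest, at 3.78, 3.62 and 3.84 against 0.75 to 3.38.

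Levels of the members spanned a wide range and are given as CPM per kilobase of exon, over all annotated exons of a gene. That length can exceed any single transcript, with 9013 bases against 5221 in the longest transcript of Top2a and 6956 against 3494 for Mcm2. For Mki67 both are 10061 bases. The order of genes below holds for this length only and may differ with another. Top2a, the topoisomerase that untangles sister chromatids, had the highest median over the 12 libraries, 149 CPM per kilobase (lowest 103, highest 195). Mki67, which coats mitotic chromosomes, followed with a median of 135 but ranged from 23.1 to 256, and Ccnd2, cyclin D2, with 111 and a range of 86.9 to 181. These 3 ranges overlapped. At the low end stood Cdk6, a partner of the D cyclins, with 1.70, and Ccnd3 with 2.86 CPM per kilobase, so that among the D cyclins Ccnd2 and Ccnd1 (49.0) lay above Ccnd3 in every library. Replication members had medians from 5.52 for Tyms, the thymidylate synthase, to 37.2 for Mcm3. The SD of log2 CPM over the 12 libraries had a median of 0.65 in the 11 replication members, 0.44 in the mitosis members, 0.31 in the 11 tested G1 members and 0.44 over all tested genes.

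**Figure D1:**
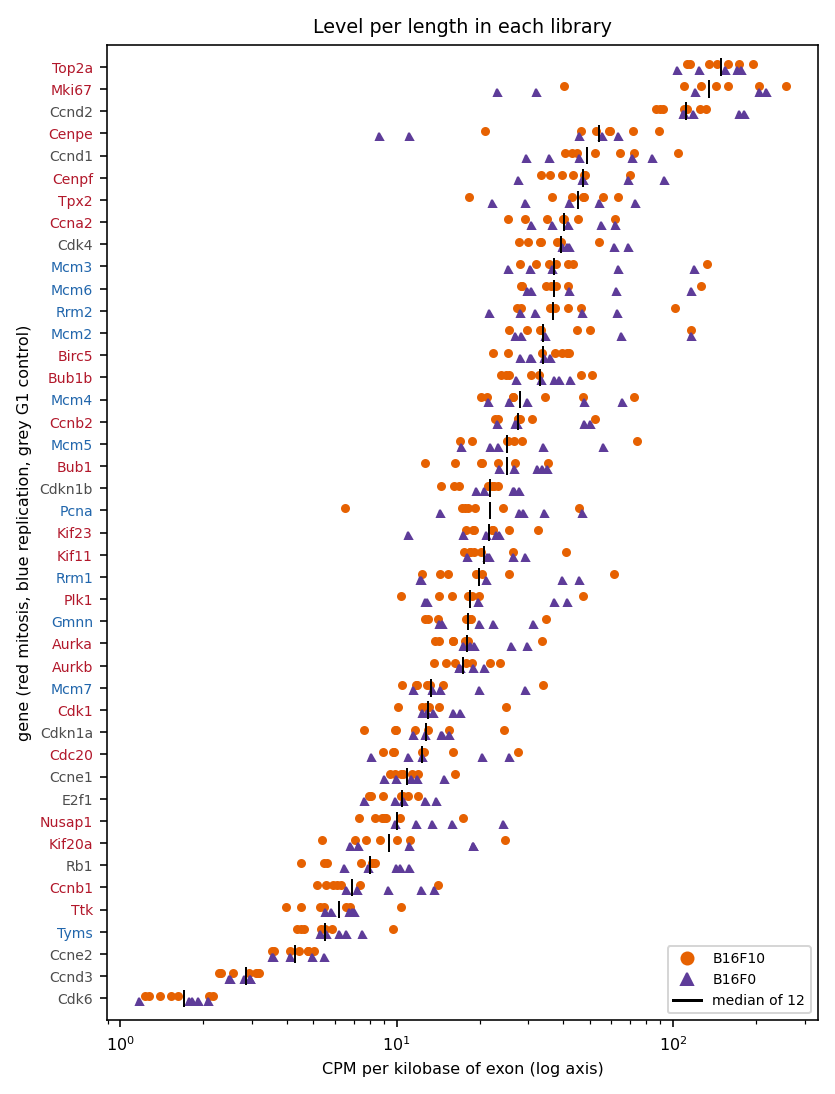
Level of each of the 43 tested members in each library, as CPM per kilobase of exon on a log axis, ordered by the median of 12 (black bar); circles are B16F10 libraries and triangles B16F0 libraries. Top2a, Mki67 and Ccnd2 lie at the top and Cdk6 at the bottom, and for Mki67 and Cenpe 3 libraries lie far below the rest.

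Cdkn2a, which encodes the inhibitors p16Ink4a and p19Arf, was the member that did not pass the filter. It had 15 counts in all, 12 in B16F10 and 3 in B16F0, with 0 to 4 counts per library and 0 in 5 libraries. At 3 counts the limit that a count of 0 allows lay between 0.146 and 0.564 CPM, which covers counting error only. No difference of Cdkn2a between the lines was detectable at this depth.

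The comparison of the lines asked whether the ribosome-bound mRNA from highly and poorly metastatic tumours differs. It does not separate reads of vessels from those of tumour cells. None of the 43 tested members was higher and none lower in B16F10 with edgeR's quasi-likelihood test at an adjusted p under 0.05, against 2.77% of all tested genes (1.3% higher and 1.47% lower). At an unadjusted p under 0.05, 4 members were lower and 0 higher (4 of 43, beside 14.8% of all tested genes in either direction). DESeq2 also called 0 members, against 3.01% of all genes higher and 3.29% lower, and limma-voom called 1 lower, Bub1, against 2.46% higher and 2.48% lower. The median log2 difference was -0.08 over the members and 0.02 over all tested genes, with 12 members above and 31 below 0. The values of the lines overlapped for all 43 members, beside a share of 2.73% of all tested genes whose libraries did not overlap. In the authors' deposited table, 43 members were listed, 0 of them past an FDR of 0.05, with a smallest FDR of 0.112.

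Among the mitosis members the smallest p belonged to Bub1, the spindle checkpoint kinase. Its lowest, median and highest values in B16F10 were 55.0, 89.0 and 154 CPM, and B16F0 replicates 1 to 5 had 153, 147, 141, 116 and 102 CPM. The B16F0 libraries lay in the upper range of B16F10 but not above it, with a log2 difference of -0.45 ± 0.17 (SE, 95% interval -0.84 to -0.07, adjusted p = 0.209). Nusap1, which bundles spindle microtubules, had 29.7, 36.6 and 70.8 CPM in B16F10 and 98.9, 64.6, 54.7, 47.7 and 39.9 CPM in B16F0. Only B16F10 replicate 3 lay above 41.8 CPM in its line, and the difference was -0.54 ± 0.21 (interval -1.01 to -0.06, adjusted p = 0.230). Without B16F10 replicate 3 both genes passed the test as lower in B16F10, Bub1 by a difference of -0.60 and Nusap1 by -0.73, against 1.49% of all genes higher and 1.85% lower in that fit. Ccnb1, the cyclin that activates Cdk1 at mitotic entry, stood at 30.4 ± 13.2 CPM in B16F10 and 41.3 ± 13.1 CPM in B16F0 (SD), with a difference of -0.40 and an adjusted p of 0.421.

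Mki67 had 407, 1447 and 2577 CPM as lowest, median and highest in B16F10, and 323, 232, 1213, 2071 and 2181 CPM in B16F0 replicates 1 to 5. Each line held libraries of low and of high Mki67, so that the difference of 0.33 had an interval of -0.82 to 1.49 (adjusted p = 0.821). Cenpe, a kinetochore motor, ranged likewise, from 180.3 to 765 CPM in B16F10, with 95.9, 74.4, 395, 479 and 548 CPM in B16F0. Its difference was 0.75 ± 0.42 (interval -0.23 to 1.73, adjusted p = 0.455). The other 16 mitosis members, among them Cdk1, Plk1, Aurka and Kif11, had differences between -0.29 for Cenpf and 0.25 for Kif23. For Aurkb, a kinase of the chromosomal passenger complex, the interval was -0.32 to 0.32.

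The replication members did not pass the test in either direction, and 0 of 11 had an unadjusted p under 0.05. Pcna, the clamp that holds polymerases on DNA, had the smallest p of them, with 15.6, 43.4 and 110.1 CPM as lowest, median and highest in B16F10 and 82.4, 113, 68.6, 66.4 and 34.6 CPM in B16F0. The lowest value, in B16F10 replicate 5, came from the library with the most Rn45s reads, and the groups overlapped over most of their range (difference -0.49, interval -1.16 to 0.19, adjusted p = 0.49). Rrm2, the regulated subunit of ribonucleotide reductase, stood at 126 ± 71.2 CPM in B16F10 and 106 ± 45.8 CPM in B16F0 (difference 0.30, adjusted p = 0.647). When the melanocytic score was added to the fit, it was the 1 member called higher in B16F10 (0.79, edgeR adjusted p = 0.00623), against 2.32% of all genes higher and 2.12% lower. Tyms was at 34.7 ± 11.3 and 37.8 ± 5.40 CPM (difference -0.12, adjusted p = 0.817). The 6 Mcm genes, subunits of the replicative helicase, differed by -0.13 to 0.07 on the log2 scale. The intervals of Mcm2, -0.80 to 0.66, and Mcm6, -0.83 to 0.56, show what these libraries could not tell apart.

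In the G1 members Cdk4 had the smallest p of all 43. It stood at 90.0, 108 and 176 CPM as lowest, median and highest in B16F10 and at 199.5, 223, 137, 135 and 129 CPM in B16F0. Only B16F10 replicate 3, at 176 CPM, lay within the range of B16F0, and the difference of -0.46 ± 0.16 (interval -0.83 to -0.08) had an adjusted p of 0.187. With the library name prefix in place of the lane it was the 1 member that passed (-0.39, edgeR adjusted p = 0.0401), against 2.4% of all genes higher and 2.25% lower. In lane 2 no prefix held both lines. That fit therefore took no line difference from B16F10 replicates 1 and 2 and B16F0 replicate 1. Rb1, the substrate of Cdk4, had 27.1, 44.6 and 50.2 CPM in B16F10 and 61.8, 60.1, 66.8, 47.4 and 38.7 CPM in B16F0 (difference -0.38 ± 0.15, adjusted p = 0.251). Cdkn1b, the inhibitor p27, stood at 89.0 ± 16.4 and 109.8 ± 17.5 CPM (difference -0.31, adjusted p = 0.421). Ccnd1, cyclin D1, had 192, 246 and 493 CPM in B16F10 and 216, 336, 395, 167 and 139 CPM in B16F0, overlapping throughout (0.33, adjusted p = 0.429). Cdkn1a, the inhibitor p21, had 27.0, 41.6 and 86.8 CPM in B16F10 and 55.0, 44.9, 51.3, 40.8 and 52.1 CPM in B16F0 (-0.11, adjusted p = 0.890). Ccnd2 had a difference of -0.34 (adjusted p = 0.449), and E2f1, Ccne1, Ccne2, Ccnd3 and Cdk6 had differences between -0.12 and 0.04.

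**Figure D2:**
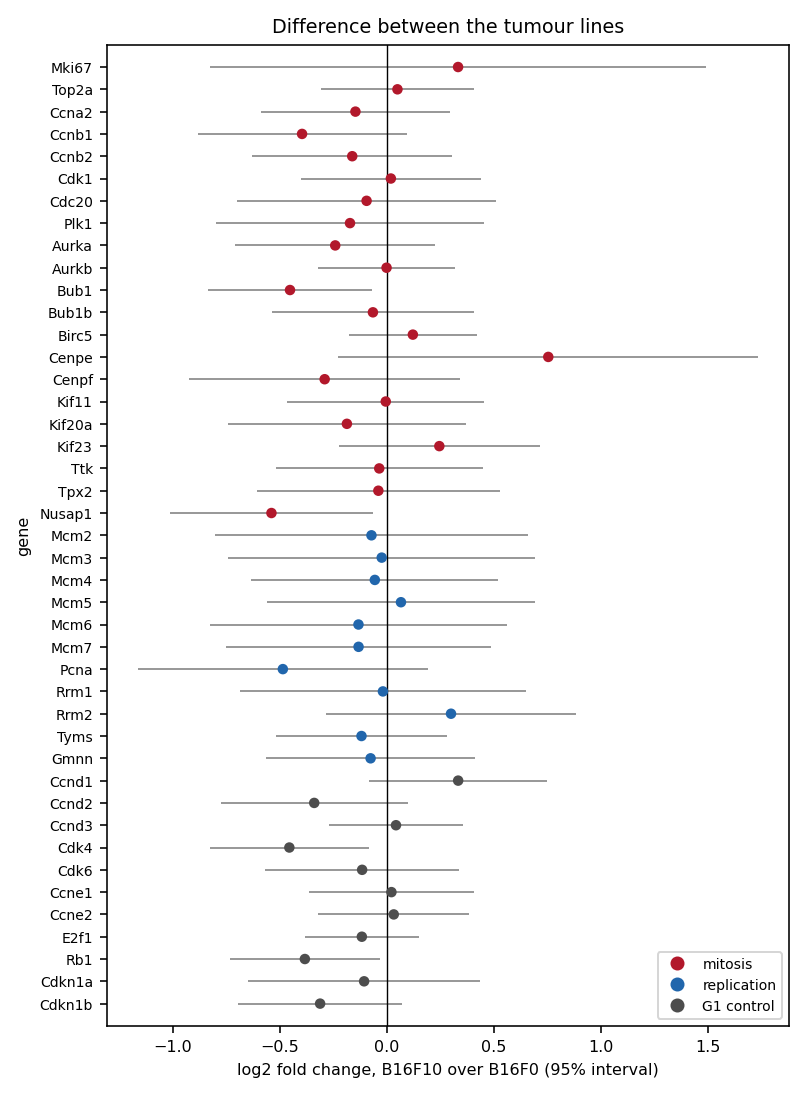
Log2 fold change of B16F10 over B16F0 for the 43 tested members from edgeR (n = 7 and n = 5 libraries, lane as a factor), coloured by role. Bars are 95% intervals computed from the fold change, its SE and 8 residual degrees of freedom. The intervals of Bub1, Nusap1, Cdk4 and Rb1 lie below 0, no adjusted p is under 0.05, and Mki67 has the widest interval.

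Further cell cycle genes gave few calls between the lines, beside 1.3% of all tested genes called higher and 1.47% lower. At an unadjusted p under 0.05 the share of all tested genes was 14.8%. Of 57 other mitotic genes 0 were called by edgeR (2 with an unadjusted p under 0.05), and the smallest p belonged to Pbk, a mitotic kinase (-0.52, adjusted p = 0.214), and Smc2, a condensin subunit (0.48, adjusted p = 0.280). Of 56 other replication genes 0 were called (3 with an unadjusted p under 0.05), led by Brca1, a gene of DNA repair, with 309 ± 95 CPM in B16F10 and 485 ± 59.2 CPM in B16F0 (-0.74, adjusted p = 0.0626), and Gins3 (-0.37, adjusted p = 0.150). Of 26 tested regulators of G1, 1 was lower in B16F10 and none higher. This was Cdk2, the kinase partner of the E and A cyclins, with 213, 309 and 315 CPM as lowest, median and highest in B16F10 and 365 to 528 CPM in B16F0. Its libraries did not overlap between the lines (difference -0.70 ± 0.16, adjusted p = 0.0382). Of 19 tested genes of the p53 pathway 1 was higher, Perp, a p53 target in cell adhesion, at 4.21 ± 1.47 and 1.65 ± 0.591 CPM (1.42 ± 0.32, adjusted p = 0.0340). Perp is also among the 7 listed keratinocyte markers, whose summed level was 6.37 to 20.04 CPM in B16F10 and 4.09 to 7.04 CPM in B16F0; the part of such cells in the result was not tested.

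Endothelial content differed more within the lines than between them (mean score 5.77 ± 1.03 and 5.81 ± 1.05, SD, exact permutation test over 792 splits, two-sided, p = 0.956). The slope of each gene on the score asked which genes are higher or lower where more of the reads come from vessels. In these bulk samples fewer cells of a type and less RNA per cell cannot be told apart. With edgeR 0 members rose and 0 fell with the score, against 4.51% and 0.517% of all tested genes (5.02% in all). At an unadjusted p under 0.05, 3 rose and 10 fell (13 of 43, beside 20.3% of all tested genes). DESeq2 called 1 rising (Ccnd1, 0.25) and 1 falling (Pcna, -0.52), against 6.21% and 2.54% of all genes. With limma-voom the numbers were 8 and 20, against 16.4% and 16.9%. The edgeR counts depended on single libraries, for the members as for all genes. Without B16F10 replicate 5, 4 members rose and 12 fell (9.23% and 6.47% of all genes), and without both Rn45s-rich libraries 5 and 14 (9.7% and 8.33%). Leaving out B16F0 replicate 1 gave 1 and 4 (8.15% and 5.88%). Leaving out B16F0 replicate 4 (3.87% and 0.276%) or 5 (4.95% and 1.23%) gave 1 falling member each, Pcna. Without the 3 libraries of highest endothelial score 0 rose and 0 fell, as did 0% of all genes.

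All 11 replication members had negative slopes on the endothelial score, with a median of -0.36 against -0.0012 over all tested genes. Pcna had the slope of smallest adjusted p among the members, -0.52 ± 0.15 (adjusted p = 0.0662). Its values in the 3 libraries of high score were 46.2 CPM (B16F10 replicate 4), 15.6 CPM (B16F10 replicate 5) and 68.6 CPM (B16F0 replicate 3), and the others lay between 34.6 and 113 CPM. Mcm6 had a slope of -0.44 ± 0.16 (adjusted p = 0.147) and Mcm2 one of -0.44 ± 0.17 (adjusted p = 0.172). Of the 21 mitosis members 15 had negative slopes, and the 6 positive ones were those of Mki67 (0.49), Cenpe (0.54), Cenpf (0.36), Kif23 (0.20), Tpx2 (0.20) and Bub1b (0.09). Among the G1 members Cdkn1a had the steepest slope, 0.35 ± 0.11 (adjusted p = 0.0961), with 54.9, 86.8 and 51.3 CPM in the 3 libraries of high score and 27.0 to 55.0 CPM in the others. The 3 high libraries lay at or near the top for Cdkn1a, though B16F0 replicates 1 and 5 reached 55.0 and 52.1 CPM. Ccnd1, whose cyclin links growth signals to G1, had a slope of 0.25 ± 0.09 (adjusted p = 0.146).

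Counts in the wider lists stand beside 4.51% of all tested genes rising and 0.517% falling with the endothelial score. Of 56 other replication genes 4 fell and 0 rose. They were Mcm8 (-0.45, adjusted p = 0.0149), Rfc3, a subunit of the clamp loader (-0.36, adjusted p = 0.0282), Hells, a chromatin remodeller (-0.40, adjusted p = 0.0409), and Prim2, a primase subunit (-0.34, adjusted p = 0.0482), and the median slope of the list was -0.21. Of 57 other mitotic genes 1 rose, Ccnf, the F-box protein cyclin F (0.47, adjusted p = 0.0374). Of 26 regulators of G1, 2 rose, Mycn (1.20, adjusted p = 0.0138) and the inhibitor Cdkn2b (0.90, adjusted p = 0.0210). Mycn averaged 1.57 ± 1.74 CPM in B16F10 and Cdkn2b 2.64 ± 1.67, so both were weakly covered. Of 19 p53 pathway genes 3 rose and 0 fell, Plk2 (0.67, adjusted p = 0.000203), Eda2r (1.11, adjusted p = 0.000728) and Btg2 (0.76, adjusted p = 0.0316), with a median slope of 0.13 over the list.

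**Figure D3:**
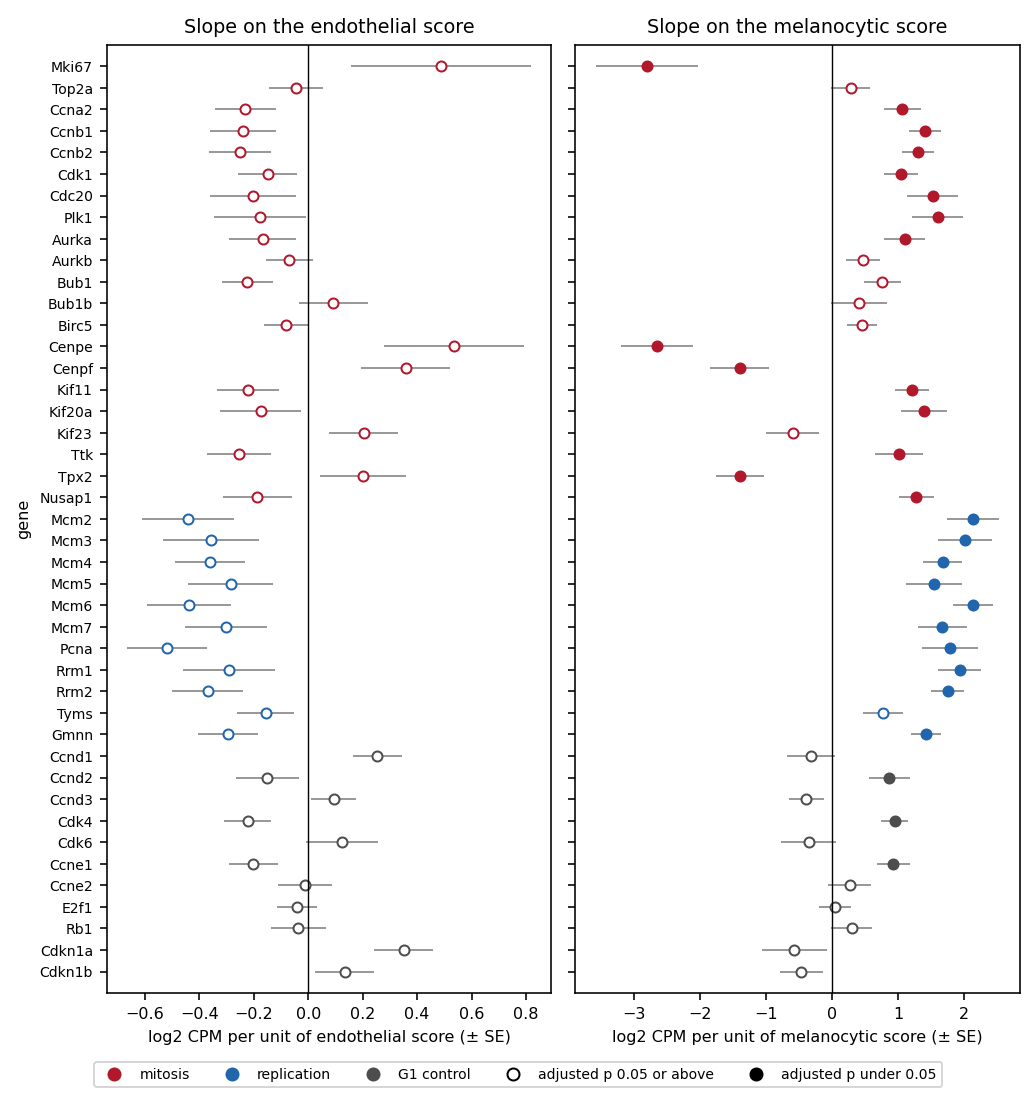
Slope of each tested member on the endothelial score (left) and on the melanocytic score (right), in log2 CPM per unit of score with its SE, from edgeR fits over 12 libraries with lane and line as factors; filled points have an adjusted p under 0.05. No point is filled on the left; on the right 24 are filled above 0 and 4 below, Mki67, Cenpe, Cenpf and Tpx2.

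The melanocytic score follows reads of the tumour cell lineage, and its slope was fitted in the same way. Of the 43 members 24 rose and 4 fell with it, against 15.6% and 17.2% of all tested genes (32.8% in all). DESeq2 called 25 and 4 (17.4% and 19.3% of all genes) and limma-voom 26 and 4 (18.9% and 21.4%). The score spans a narrow range, from 7.79 to 8.68, and the calls rest on the 3 libraries that stood apart. Without them 0 members rose and 0 fell, as did 0% of all tested genes, in a fit that covers scores of 7.79 to 8.23. Without B16F10 replicate 3 alone 9 rose and 1 fell (5.02% and 6.91% of all genes). Without B16F0 replicate 2 the numbers were 24 and 2 (12.8% and 13.5%), and without B16F0 replicate 3 they were 19 and 1 (8.07% and 8.71%). With the background reads as a further covariate, a fit added after the values were seen, 0 members rose and 0 fell, against 0.0591% and 0.259% of all genes. The slopes of several members stayed about as large in that fit or were larger. Those of Mcm2, Mcm4 and Mcm6 were 3.00, 2.31 and 2.66 (edgeR adjusted p = 0.0507 each), those of Mcm3, Rrm1 and Rrm2 were 2.49, 2.05 and 1.93 (0.0866, 0.0908 and 0.0618), and that of Cenpe was -2.55 (0.172). Slopes nearer 0 than without the covariate included those of Mki67, at -1.99 (edgeR adjusted p = 0.420), Ccnb1, at 1.12 (0.159), and Nusap1, at 0.49 (0.476). Those of Pcna, Gmnn and Ccnb2 were nearer 0 too, at 1.68 (edgeR adjusted p = 0.222), 1.17 (0.128) and 1.07 (0.179). Background reads, gene number, transcript length balance and macrophage score moved with the melanocytic score in these libraries, as given above. The fit with background reads therefore cannot tell their part from that of the score, and its slopes are poorly determined. The part of gene number, length balance and macrophage score was not tested.

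Replication genes gave 10 of these 24 calls, all but Tyms, whose slope of 0.77 had an adjusted p of 0.0682. Mcm6 had a slope of 2.14 ± 0.30 (adjusted p = 0.00145), and stood at 592 CPM (B16F10 replicate 3), 542 CPM (B16F0 replicate 2) and 290.5 CPM (B16F0 replicate 1) in these libraries and at 132 to 197 CPM in the 9 others. Rrm2 had a slope of 1.75 ± 0.25 (adjusted p = 0.00145), with 282, 174 and 130.3 CPM in the same libraries and 60.0 to 129 CPM elsewhere. Rrm1, the large subunit of the same reductase, stood at 677, 506 and 437 CPM there against 134 to 281 CPM (slope 1.94 ± 0.33). For each of these genes the 3 libraries lay above all others, though for Rrm2 the gap between 129 and 130.3 CPM was slight. Mcm2 (2.14 ± 0.40), Mcm3 (2.02 ± 0.41), Mcm4 (1.68 ± 0.30), Pcna (1.79 ± 0.42) and Gmnn (1.43 ± 0.23), the geminin that blocks renewed licensing of origins, rose as well. All 11 replication members, Tyms included, were higher in each of the 3 libraries than in any of the other 9, beside 13.7% of all tested genes. The mean log2 CPM of the 11 genes was 7.92, 7.68 and 7.12 in them and 6.14 to 6.72 elsewhere.

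Of the 21 mitosis members 11 rose and 4 fell with the melanocytic score, beside 15.6% and 17.2% of all tested genes. Ccnb1 rose by 1.41 ± 0.24 log2 CPM per unit (adjusted p = 0.00238), with 59.6 CPM in B16F10 replicate 3, 51.8 in B16F0 replicate 2 and 57.5 in B16F0 replicate 1, while the 9 others had 21.8 to 39.1 CPM. Ccnb2, its close relative, stood at 80.1, 76.9 and 72.9 CPM against 34.9 to 47.5 CPM (1.30 ± 0.25, adjusted p = 0.00353). Nusap1, with 70.8, 64.6 and 98.9 CPM against 29.7 to 54.7 CPM, had a slope of 1.28 ± 0.26. Cdc20, Plk1, Aurka, Kif11, Kif20a, Ttk, Ccna2 and Cdk1 rose too, by 1.01 to 1.6. Slopes of Top2a, Aurkb, Bub1, Bub1b, Birc5 and Kif23 did not pass the test, and ran from -0.60 for Kif23 to 0.76 for Bub1.

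Mki67 went the other way. It stood at 407, 232 and 323 CPM in B16F10 replicate 3 and B16F0 replicates 2 and 1, and at 1101 to 2577 CPM in the other 9 libraries, and fell by 2.81 ± 0.78 log2 CPM per unit of score (adjusted p = 0.0177). Cenpe had 180.3, 74.4 and 95.9 CPM against 395 to 765 CPM and fell by 2.66 ± 0.54 (adjusted p = 0.00492). Tpx2, the spindle factor that activates Aurora A, had 85.5, 104 and 137 CPM against 170.3 to 342 CPM (-1.39 ± 0.37). Cenpf, a kinetochore protein, had 514, 426 and 732 CPM against 555 to 1437 CPM, and overlapped (-1.40 ± 0.45). Mki67, Cenpe and Tpx2 were thus lower in the 3 libraries than in any other, beside 13.4% of all tested genes. The ratio of Mki67 to Mcm6 CPM was 0.688, 0.428 and 1.11 there and 6.17 to 15.8 elsewhere, so that the same 3 libraries were the lowest of 12 for Mki67, a common proliferation marker, and the highest for Mcm6. The longest annotated transcripts of Mki67, Cenpe, Cenpf and Tpx2 have 10061, 7910, 11130 and 4365 bases, and those of the 24 members that rose have from 1127 (Gmnn) to 6330 (Ccnd2), so that 3 of the 4 that fell have longer transcripts than any that rose. Over all exons of a gene the ranges overlap, with 8620 bases for Cenpe and 11012 for Rrm1, which rose. Among the other mitotic genes described below, the longest transcripts of those that fell were long in Aspm (9867 bases) and Cit (9514). They were shorter in Hmmr (3892) and Incenp (3449), which also fell, while Mad2l1 (7557) rose. The part of transcript length was not tested. Without the 3 libraries the slopes of Mki67 and Cenpe were 1.01 (adjusted p = 0.538) and 0.075 (adjusted p = 0.954), and that of Mcm3 was -0.58 (adjusted p = 0.453).

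**Figure D4:**
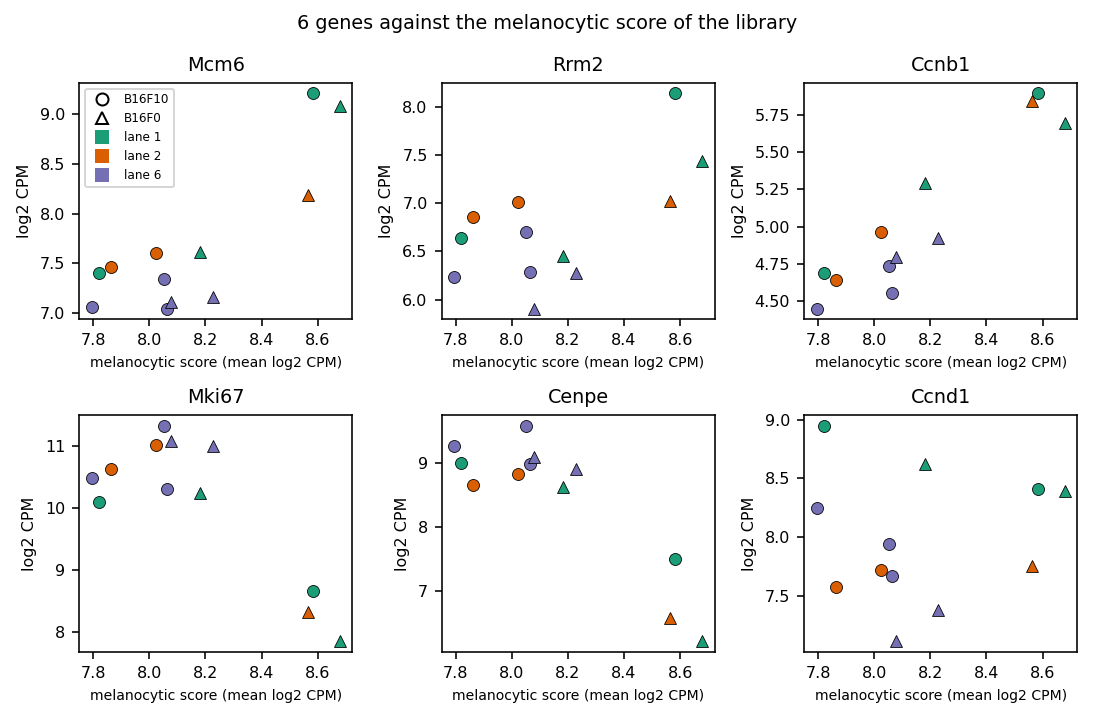
Log2 CPM of 6 members in each library against the melanocytic score of the library (mean log2 CPM of 20 markers); shape gives the line and colour the lane. The 3 libraries at scores of 8.56 to 8.68 are highest for Mcm6, Rrm2 and Ccnb1 and lowest for Mki67 and Cenpe, while Ccnd1 in them lies within the range of the others.

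Of the 11 tested G1 members 3 rose and 0 fell with the melanocytic score, beside 15.6% and 17.2% of all tested genes. Cdk4, with 176, 223 and 199.5 CPM in B16F10 replicate 3 and B16F0 replicates 2 and 1 and 90.0 to 137 CPM elsewhere, had a slope of 0.95 ± 0.21 (adjusted p = 0.00715). Ccne1, cyclin E1, had a slope of 0.93 ± 0.25 and Ccnd2 one of 0.87 ± 0.31. E2f1 had a slope of 0.04 ± 0.24 and lay between 24.0 and 44.0 CPM in all libraries. Cdkn1a and Cdkn1b had slopes of -0.57 ± 0.49 and -0.46 ± 0.33, which did not pass. Under library size scaling, where the median slope of all genes shifted from -0.02 to 0.19, 18 members rose and 0 fell (13.2% and 4.68% of all genes). Under upper quartile scaling, where it shifted to -0.18, 22 rose and 4 fell (9.76% and 15.6%). The number of members with a positive slope was 33 with TMM, 33 with RLE, 32 with upper quartile and 34 with library size scaling.

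In the wider lists the replication genes again mostly rose, while the other lists moved both ways. The counts stand beside 15.6% of all tested genes rising and 17.2% falling (32.8% in all). Of 56 other replication genes 32 rose and 3 fell with the melanocytic score, with a median slope of 0.94. The risen genes include Pole, the leading strand polymerase (1.70, adjusted p = 0.00287), Chek1, the checkpoint kinase (1.40, adjusted p = 0.00302), Chaf1b, a histone chaperone (1.65, adjusted p = 0.00310), and Orc2 of the origin complex (1.10, adjusted p = 0.00380). Of 57 other mitotic genes 15 rose and 8 fell (median slope 0.36). Bub3 (1.56, adjusted p = 0.00177) and Ndc80 (1.44, adjusted p = 0.00341), both of the kinetochore and its checkpoint, rose, while Cit, the citron kinase of cytokinesis (-3.28, adjusted p = 0.00131), and Incenp of the passenger complex (-2.94, adjusted p = 0.00197) fell. Of 26 regulators of G1, 4 rose and 3 fell (7 of 26 called, with 13 positive and 13 negative slopes), led by Fbxw7, the ubiquitin ligase subunit that marks cyclin E (-2.09, adjusted p = 0.00226), and Rbl1, a relative of Rb1 (1.18, adjusted p = 0.00423). Of 19 p53 pathway genes 1 rose and 4 fell, with a median slope of -0.42. These counts rest on the same 3 libraries.

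**Figure D5:**
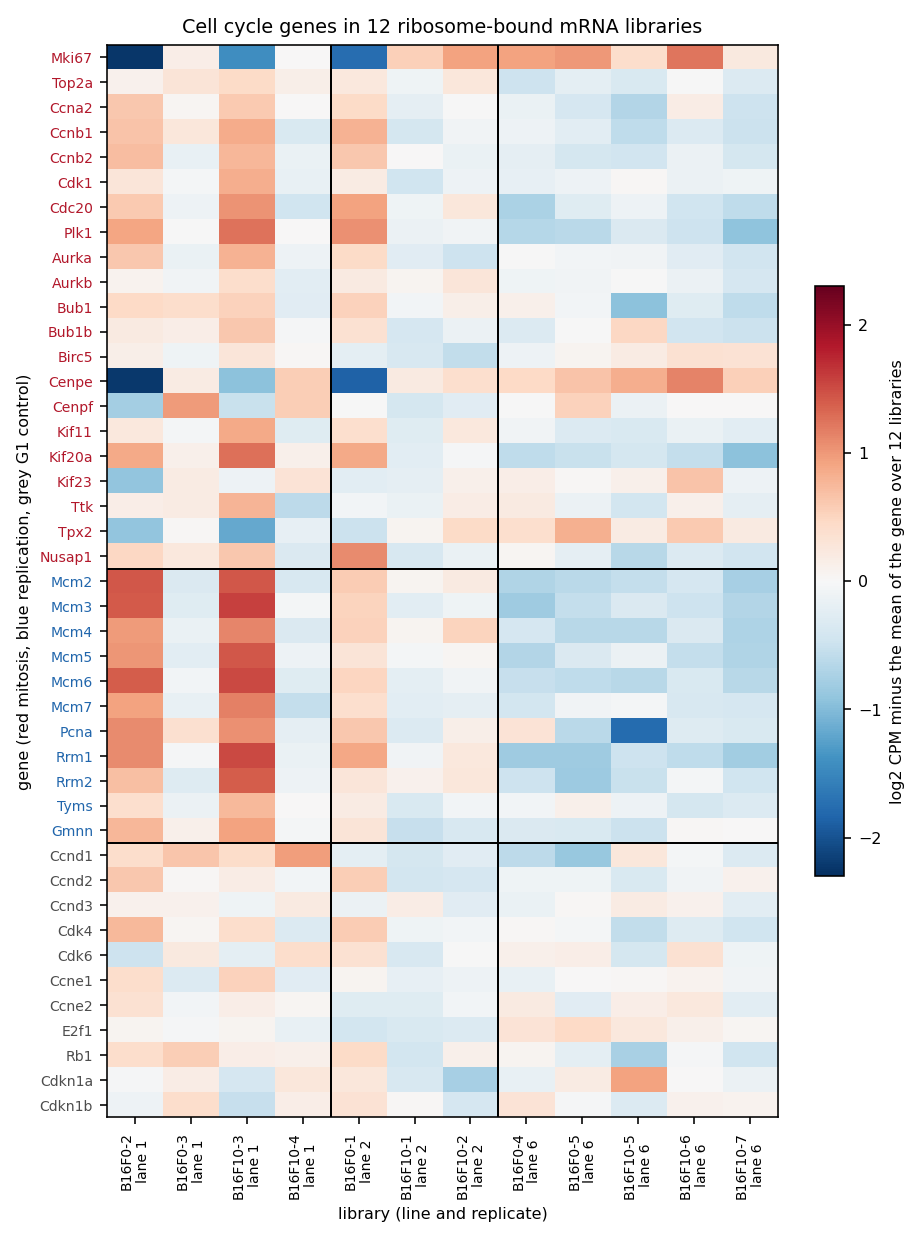
Log2 CPM of each tested member in each library minus the mean of the gene over 12 libraries, with genes ordered by role (rows) and libraries by lane, separated by vertical lines, and by line (columns). The 3 columns B16F0-2, B16F10-3 and B16F0-1 are red for all replication genes and blue for Mki67, Cenpe and Tpx2.

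Lanes were compared because each held both lines. With edgeR 1 member differed between lanes, Ccnd1, against 3.14% of all tested genes, and 23 of 43 had an unadjusted p under 0.05, beside 29.4% of all tested genes. Ccnd1 stood at 341, 493, 336 and 395 CPM in the 4 libraries of lane 1, at 192, 212 and 216 CPM in lane 2, and at 305, 246, 204, 167 and 139 CPM in lane 6. Lane 1 lay above lanes 2 and 6 without overlap, with log2 differences of -0.96 for lane 2 and -0.94 for lane 6 (adjusted p = 0.0433). The call was lost without B16F10 replicates 1, 2, 6 or 7 or B16F0 replicates 2, 4 or 5. The count of members that differed between lanes ran up to 10 when 1 library was left out (B16F0 replicate 3, beside 9.24% of all genes, and 9 without B16F0 replicate 1, beside 16.4%). It was 15 with DESeq2 (19% of all genes) and 28 when the 3 libraries of highest endothelial score were left out (32%). Of the other cell cycle lists, Ccnf (adjusted p = 0.0222), Ncapg of condensin (adjusted p = 0.0433) and E2f6, a repressor of the E2F family (adjusted p = 0.0433), differed between lanes.

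The difference between the lines did not depend on the lane by test for any member. edgeR called 0 of 43 members and 0 of all tested genes (0%), 0 members had an unadjusted p under 0.05 (beside 7.68% of all tested genes), and DESeq2 (0.465% of all genes) and limma-voom (0%) called 0 members. Within lanes the log2 difference of Mki67 between the lines was 0.34 in lane 1, 2.49 in lane 2 and -0.34 in lane 6 (adjusted p = 0.638), and that of Cenpe was 0.83, 2.16 and 0.28 (adjusted p = 0.733). In lane 2 the only B16F0 library was replicate 1, which is among the 3 that stood apart. Cdk4 was lower in B16F10 in each lane, by differences of -0.35, -0.67 and -0.43, as was Bub1, by -0.29, -0.49 and -0.64.

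The names of the 4 libraries of lane 1 begin with 030414 (B16F10 replicate 3 and B16F0 replicate 2) or 041814 (B16F10 replicate 4 and B16F0 replicate 3), so that each prefix holds 1 library of each line. This comparison of 2 with 2 libraries was added after the values had been seen, and its direction follows from libraries already described. With 030414, 21 members were higher and 5 lower, against 12.4% and 13.9% of all tested genes (26.3% in all). Mcm2 (1.78 ± 0.17), Mcm3 (1.65 ± 0.16) and Mcm6 (1.63 ± 0.17) were higher, each with an adjusted p of 0.000469. The 5 lower members were Cenpe (-1.91), Mki67 (-1.86), Cenpf (-1.39), Tpx2 (-0.96) and Cdkn1b (-0.60), named after their values were seen. Without B16F10 replicate 3 the numbers were 12 and 3 (4.92% and 6.84% of all genes), and without B16F10 replicate 4 they were 9 and 3 (2.82% and 4.42%). Without B16F0 replicate 2 they were 21 and 2 (6.2% and 4.88%), and without B16F0 replicate 3 they were 16 and 3 (4.78% and 5.31%). Both 041814 libraries had a high endothelial score, so the prefix, the endothelial score and the melanocytic score cannot be told apart within lane 1.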

How the data were processed

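Ribosome-bound mRNA was measured in 12 libraries. The authors deposited raw counts of reads for each gene symbol. The build was mm10 and the tools were STAR 2.2.1, featureCounts 1.6.0, cutadapt 1.16, R 3.3.2 and edgeR, per the submitters' processing notes. The tools' settings, the annotation and the strand setting were not given in the sources used here, and overlapping, antisense or near-identical genes may share reads. The authors' deposited table of log2 fold changes and p-values has decimal commas, read as decimal points. The normalized values that were also deposited were left out, since their decimal marks were lost.

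Groups came from the labels, and lane and prefix from the library names in them. Genes passed the filterByExpr function of edgeR 4.0.16 (R 4.3.3, minimum count 10, line as design). TMM-scaled counts entered edgeR's quasi-likelihood F test with lane and line as factors and Benjamini-Hochberg adjustment over all 13534 tested genes (false discovery rate 0.05). Fold changes are B16F10 over B16F0, SE is the fold change over the root of the F value, and values after ± beside a CPM are SD. The 95% intervals are the fold change ± the SE times the t quantile for 8 residual degrees of freedom. The p-values come from the F test itself, so intervals and p-values need not match. Scores are mean log2 CPM of 20 markers each, with a prior count of 0.5, and entered as a covariate. The biological coefficient of variation was 0.318. Exon lengths came from GENCODE release M21, in which 95.5% of symbols were found. DESeq2 1.42.0 and limma-voom (limma 3.58.1) were alternatives. The tests were tried on simulated counts. Library scores were compared by exact permutation. Library totals of 5322510 to 20569186 counts limit precision most for genes with few CPM.

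Values in full are given for members called in a test (at most 10 of smallest p each), the 3 members of smallest p between the lines in each role, and Mki67, Pcna, Ccnd1, Cdkn1a and Cdkn2a, and from the wider lists for up to 4 called genes or the 2 of smallest p. The members, lists and tests were chosen with earlier results of these data known. Replicate numbers are shared by the lines, but the deviations of same-numbered libraries did not go together, so the numbers do not pair them.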

Additional observations from a re-analysis of the deposited data

Results flagged for a closer look

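Within each line, the highest and the lowest library of each tested member was set against the others by Dixon's gap test, in which the gap to the nearest library, as a share of the whole range, must exceed a critical value. Of 86 groups tested 15 had such a library. The nominal share of 1 in 20 supposes independent groups, while these members share libraries and many moved together. No share over all tested genes is given for this test. In 14 of the 15 the outlying value was the highest of the 7 B16F10 libraries and came from replicate 3. These were the values of Ccnb1 (59.6 CPM), Ccnb2 (80.1 CPM), Cdk1 (123 CPM), Plk1 (104 CPM), Aurka (84.8 CPM) and Nusap1 (70.8 CPM) among the mitosis genes. Among the replication genes they were those of Mcm3 (499 CPM), Mcm5 (296 CPM), Mcm6 (592 CPM), Mcm7 (150.0 CPM), Rrm2 (282 CPM), Tyms (59.2 CPM) and Gmnn (51.0 CPM), and among the G1 genes that of Ccne1 (43.2 CPM). The remaining one was the lowest B16F0 value of Cdk6, 16.4 CPM in replicate 2. Both libraries are among the 3 of highest melanocytic score. B16F10 replicate 3 also had the highest value of the 12 libraries for 15.8% of all tested genes.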

How the results depend on the processing

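Between the lines, 0 members higher and 0 lower held in most settings, DESeq2, RLE scaling and no filter included; the melanocytic covariate gave 1 higher (Rrm2), and the name prefix and limma-voom 1 lower each. Leaving out 1 library gave 0 to 2 lower. The name prefix fit took no line difference from lane 2, where no prefix held both lines. A fit with the replicate number as a block in place of the lane gave 0 higher and 0 lower; same-numbered libraries deviated with correlations of -0.29, -0.27, -0.23, -0.27 and 0.33, so the numbers do not pair them. For the endothelial score, members rising and falling numbered 8 and 20 with limma-voom, 1 and 1 with DESeq2, 1 and 1 at a false discovery rate of 0.1, 5 and 14 without Rn45s-rich libraries, 1 rising without a lane term, and 1, 2 and 2 falling with upper quartile scaling, with library size scaling and without lane 2. Leaving out 1 library gave 0 to 4 rising and 0 to 12 falling. For the melanocytic score, 24 rising and 4 falling became 10 and 2 with Dct alone as the score, 5 and 0 without the highest endothelial libraries, 0 and 0 without the highest melanocytic libraries and 0 and 0 with background reads as a covariate, where the slopes of Mcm2, Mcm3, Mcm4, Mcm6, Rrm1 and Rrm2 were larger (1.93 to 3.00) at adjusted p of 0.0507 to 0.0908. In the fit with background reads the slopes of Mki67, Pcna, Gmnn, Ccnb1, Ccnb2 and Nusap1, among others, were nearer 0. There were 2 falling without a line term and 0 with library size scaling. Leaving out 1 library gave 9 to 24 rising and 1 to 4 falling. Without the highest melanocytic libraries the slopes of Mki67, Mcm3 and Cenpe turned to 1.01, -0.58 and 0.075. Members differing between lanes numbered 0 without a line term, 16 with the endothelial covariate, 10 with library size scaling, 8 with no filter, 15 with DESeq2, 6 with limma-voom, 13 at a false discovery rate of 0.1, 0 without Rn45s-rich libraries, 28 without the highest endothelial and 8 without the highest melanocytic libraries, and 0 to 10 when 1 library was left out. The lane by line test gave 0 throughout. For the name prefix, 21 higher and 5 lower became 9 to 23 and 2 to 7 with 1 library left out. The counts in this section are of members alone, and the share of all genes called moved between settings as well. For lanes that share was 3.14% with edgeR, 19% with DESeq2 and 32% without the highest endothelial libraries. A changed count is therefore not a change particular to the members. The causes of these changes were not tested. The fits without the highest melanocytic libraries, with background reads beside the melanocytic score, and of the prefix were added after the data had been seen.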
